A study of Mus musculus with 12 samples.

Results

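The endoplasmic reticulum (ER) chaperones and the genes of the unfolded protein response were followed as a set of 33 genes of the 17471 listed in 12 RNA sequencing libraries of mouse left ventricle. They were taken by symbol from a list drawn up with earlier results of these data known. They comprised 11 ER chaperones and co-chaperones, 5 ER oxidoreductases, 6 genes of ER-associated degradation, 6 stress sensors and transcription factors, and 5 downstream outputs of the PERK kinase and its transcription factor ATF4. Hearts were taken on day 4 after a lasting tie of the left anterior descending artery, which causes a myocardial infarction (MI), or after sham surgery. The 4 groups of 3 libraries were Cre-positive MI, Cre-negative MI, Cre-positive sham and Cre-negative sham. All mice were siblings 6 to 10 weeks old, carried floxed Yap alleles and ate a diet with tamoxifen citrate from surgery onwards. Cre-positive mice had a copy of MerCreMer, a tamoxifen-inducible recombinase, at the endogenous periostin promoter, which is active in myofibroblasts, and Cre-negative mice had wildtype periostin. The labels number the libraries of each group and do not say whether each came from 1 animal, so p-values measure the spread between these libraries.

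Proteins that are secreted or sit in membranes fold in the ER with the help of chaperones such as BiP (Hspa5) and of disulfide isomerases, and proteins that fail to fold are returned to the cytosol for degradation. Unfolded protein is sensed by IRE1 (Ern1), which splices Xbp1 mRNA, by ATF6, which is cleaved into a transcription factor, and by PERK (Eif2ak3), which slows translation and favours synthesis of ATF4. ATF6 and spliced XBP1 are known to raise chaperone and degradation genes, and ATF4 to raise genes of amino acid supply, redox balance and, through CHOP (Ddit3), cell death. In the heart after infarction, fibroblasts that turn into myofibroblasts secrete large amounts of collagen, a client of the ER folding machinery.

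Total expected counts (reads assigned to genes) were 10257675 to 15176286 per library, and all 33 members passed the filter on low counts that left 13678 genes. Yap1, the floxed gene, had 93.9, 92.9 and 91.1 CPM (library-scaled counts, with TMM factors) in Cre-positive MI and 84.6, 96.4 and 94 CPM in Cre-negative MI. After sham it had 121, 102 and 107 CPM in Cre-positive and 116, 115 and 114 CPM in Cre-negative ventricles, so whole-ventricle Yap1 overlapped between genotypes after both surgeries. Postn, whose locus carries the Cre allele, was at 603 to 674 CPM in Cre-positive MI against 1530 to 1730 CPM in Cre-negative MI, and at 3.76 to 11.4 CPM in Cre-positive sham against 62.7 to 111 CPM in Cre-negative sham. The 8 cardiomyocyte markers, which define the tissue, summed to 43600 to 129000 CPM and none was at 0 in any group. Summed Y-linked reads reached 10 CPM in 1 of 3 Cre-positive MI, 3 of 3 Cre-negative MI, 0 of 3 Cre-positive sham and 2 of 3 Cre-negative sham libraries, so libraries with Y-linked reads were spread unevenly over the groups. One library, Cre-positive sham replicate 2, stood apart in these genes. It was the highest of its group for 27 of 33 members (81.8%), against 39.2% of all 13678 genes. Counts and medians of the comparisons that use the Cre-positive sham group are therefore given with and without it, and so are members whose call or sign in the Cre-positive injury response differed without it. This library was singled out from the values of these same members after they were seen. Leaving it out lowers the sham mean of the members in which it was highest by construction, so values without it are not an independent result.

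The ER folding genes responded to infarction most widely in Cre-negative hearts, while the share of members that rose in Cre-positive hearts lay near that of all genes. The isomerases, Edem1, Sdf2l1, Manf and Asns rose in both genotypes, Herpud1 fell in both, and BiP itself was not called in either. In Cre-negative MI against Cre-negative sham, 18 of 33 members rose and 5 fell (edgeR quasi-likelihood test, Benjamini-Hochberg adjusted p under 0.05), where 29.9% of all genes rose and 24.4% fell (54.3% in either direction). In Cre-positive MI against Cre-positive sham, 10 members rose and 3 fell, against a background of 25.7% and 19.5% (45.2% in either direction). In Cre-negative hearts all MI libraries lay above all sham libraries for 20 members and below them for 5, against 36.1% and 31.7% of all genes, and in Cre-positive hearts for 10 and 3, against 29.3% and 21.9%. The median log2 fold change of the members was 0.47 in Cre-negative and 0.19 in Cre-positive hearts, and that of all genes was 0.02 in both. Without Cre-positive sham replicate 2, 15 members rose and 2 fell in Cre-positive hearts (background 25.6% and 22.1%), with a median of 0.29. When libraries were scaled by their size alone, the median of all genes was 0.27 in Cre-negative and 0.24 in Cre-positive hearts, and the share of all calls that were higher moved to 75.4% and 81.3%, compared with 55.1% and 56.9% under TMM. Under that scaling 21 members rose and 1 fell in Cre-negative hearts (background 41.2% and 13.4%) and 16 rose and 1 fell in Cre-positive hearts (36.4% and 8.39%), so falls are relative to the TMM scale. Fewer members were called in Cre-positive hearts, but the difference between the injury responses passed the test for 0 of 33 members, where 0% of all genes passed.

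**Figure D1:**
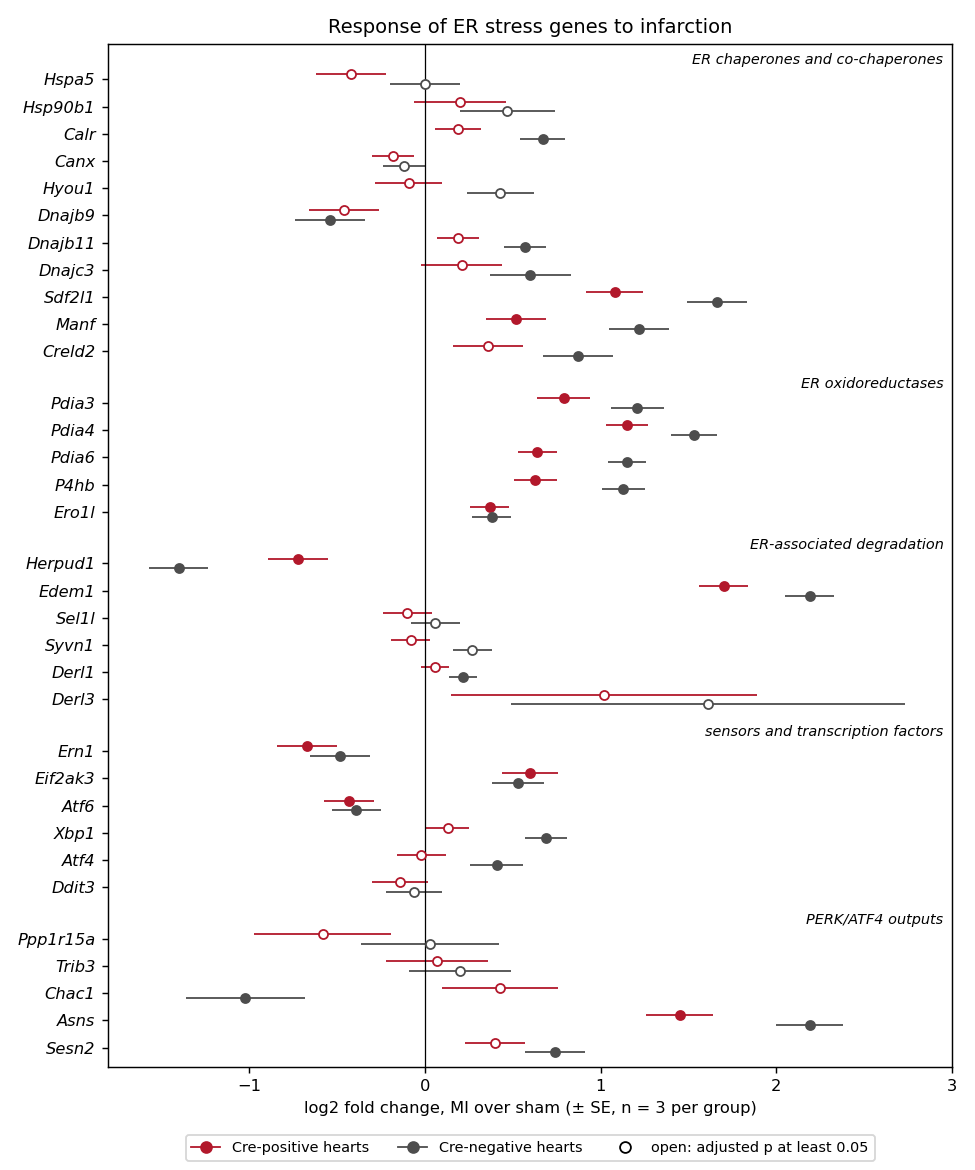
Log2 fold change of each member, MI over sham (x axis, error bars ± SE, n = 3 libraries per group), in Cre-positive (red) and Cre-negative (grey) hearts, with filled points for adjusted p under 0.05. Edem1 and Asns stand farthest to the right in both genotypes, Herpud1 lies farthest to the left in Cre-negative hearts, and Hspa5 lies at 0.00 in Cre-negative hearts.

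Bulk tissue does not separate the number of cells from RNA per cell, and fewer cells of a type and less RNA per cell cannot be told apart. The cell composition markers moved with injury. Summed over 8 markers, myofibroblast RNA was 9280 to 10500 CPM in Cre-positive MI, 13000 to 14600 CPM in Cre-negative MI, 150 to 688 CPM in Cre-positive sham and 893 to 1230 CPM in Cre-negative sham. These 8 markers include Postn, whose locus carries the Cre allele and whose level differed between genotypes. Differences of this sum between genotypes therefore hold that of Postn itself. The 7 macrophage markers found of 8 listed summed to 839 to 920 CPM in Cre-positive MI, 1070 to 1390 CPM in Cre-negative MI, 63.6 to 201 CPM in Cre-positive sham and 156 to 189 CPM in Cre-negative sham. Those of B cells and plasma cells, which are rich in ER, summed to 38.5 to 110 CPM in Cre-positive MI, 47.5 to 110 CPM in Cre-negative MI, 6.6 to 11.7 CPM in Cre-positive sham and 9.98 to 10.8 CPM in Cre-negative sham. Cardiomyocyte markers summed to 62500 to 74300 CPM in Cre-positive MI, 43600 to 60200 CPM in Cre-negative MI, 67400 to 129000 CPM in Cre-positive sham and 105000 to 119000 CPM in Cre-negative sham. The 6 endothelial markers summed to 813 to 959 CPM over all groups. No listed marker found in the files was at 0 throughout a group, and the part of cell composition in the results was not tested.

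Promoters were searched for the elements by which the response is known to act, and the letters found are shown before the values. RefSeq windows of GRCm38.p6, the assembly also called mm10, covered 250 bases before and 50 after an annotated start of 29 of 33 members. For Edem1 the window (chr6:108828391-108828690, plus strand) lay inside the listed gene (chr6:108824045-108859356). The bases before the first base of the listed Edem1 gene were therefore not searched. The windows were searched on both strands for exact matches to the ER stress response element ERSE (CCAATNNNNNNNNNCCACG), ERSE-II (ATTGGNCCACG), the unfolded protein response element UPRE (TGACGTGG) and the C/EBP-ATF element (TGATGNAA), known to be bound by ATF4. At least 1 of these stood in 14 of the 29 windows and none in the other 15, among them those of Edem1, Pdia3, Pdia4, P4hb, Sdf2l1, Xbp1, Atf4 and Ddit3. ERSE is known as a site of ATF6 with the CCAAT-binding factor NF-Y, and it shares the letters CCACG with ERSE-II. No match of one motif overlapped a match of another in these genes. ERSE stood in 9 of 29 members (31%), against 0.166% of the 13818 genes of the files that have a window. All 9 were among the 18 windows of the chaperone and degradation genes, and 0 of 8 windows of the PERK/ATF4 genes held it. The motifs and the member list both come from what is known of this response, so these shares describe the list and are not an independent result. The matches are written below 5′ to 3′ on the strand of the motif, with its fixed letters in capitals.
Hspa5: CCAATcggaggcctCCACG
Hsp90b1 (far match): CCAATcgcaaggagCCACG
Hsp90b1 (near match): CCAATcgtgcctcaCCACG
Calr: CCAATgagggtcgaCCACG
Canx: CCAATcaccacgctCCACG
Pdia6: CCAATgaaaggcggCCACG
Dnajc3: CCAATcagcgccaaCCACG
Creld2: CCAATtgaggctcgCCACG
Syvn1: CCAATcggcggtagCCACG
Derl3: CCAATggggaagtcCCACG

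ERSE-II stood in 2 of 29 members (6.9%), against 0.0651% of genes with a window, and UPRE in 0 of 29, against 0.963%. The 2 matches to ERSE-II follow, with the fixed letters in capitals.
Herpud1: ATTGGgCCACG
Dnajb11: ATTGGcCCACG

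The C/EBP-ATF element stood in 4 of 29 members (13.8%), against 3.19% of genes with a window, and these were Asns, Chac1, Herpud1 and Trib3. The 250 bases before the start are shown for 5 genes that recur in the results, on the strand of the gene, with the matches in capitals. They were chosen to set Hspa5 and Hsp90b1, which hold ERSE, beside Herpud1, which holds ERSE-II and the C/EBP-ATF element, and beside Asns and Chac1, which hold the C/EBP-ATF element. A match on the opposite strand appears as its reverse complement. The windows lie at chr2:34771840-34772089 (plus strand) for Hspa5, chr10:86705445-86705694 (minus) for Hsp90b1, chr8:94386179-94386428 (plus) for Herpud1, chr6:7693210-7693459 (minus) for Asns and chr2:119350992-119351241 (plus) for Chac1.
Hspa5: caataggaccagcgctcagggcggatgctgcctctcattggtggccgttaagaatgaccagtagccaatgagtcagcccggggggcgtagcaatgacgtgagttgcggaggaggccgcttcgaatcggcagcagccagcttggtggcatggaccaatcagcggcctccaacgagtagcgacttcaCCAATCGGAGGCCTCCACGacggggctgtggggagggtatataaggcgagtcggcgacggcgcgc
Hsp90b1: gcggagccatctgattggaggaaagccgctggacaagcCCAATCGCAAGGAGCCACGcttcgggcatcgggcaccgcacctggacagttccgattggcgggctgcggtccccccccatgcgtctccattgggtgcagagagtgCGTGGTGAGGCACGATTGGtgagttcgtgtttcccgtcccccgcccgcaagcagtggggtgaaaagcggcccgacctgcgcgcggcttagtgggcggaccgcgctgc
Herpud1: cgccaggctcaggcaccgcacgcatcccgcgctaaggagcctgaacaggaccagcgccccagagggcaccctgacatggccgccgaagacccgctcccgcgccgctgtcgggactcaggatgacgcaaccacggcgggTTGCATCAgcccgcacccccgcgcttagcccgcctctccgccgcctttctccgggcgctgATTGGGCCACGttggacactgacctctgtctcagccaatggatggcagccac
Asns: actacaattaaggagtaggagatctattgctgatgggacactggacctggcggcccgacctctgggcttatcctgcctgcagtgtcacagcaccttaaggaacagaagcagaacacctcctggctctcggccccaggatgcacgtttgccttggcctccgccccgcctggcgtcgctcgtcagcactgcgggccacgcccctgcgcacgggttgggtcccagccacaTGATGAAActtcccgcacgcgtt
Chac1: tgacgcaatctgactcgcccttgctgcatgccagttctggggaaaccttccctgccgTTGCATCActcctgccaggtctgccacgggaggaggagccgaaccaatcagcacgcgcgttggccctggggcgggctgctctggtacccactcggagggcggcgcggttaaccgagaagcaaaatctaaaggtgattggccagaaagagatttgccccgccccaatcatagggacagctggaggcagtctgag

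The ERSE of Hspa5 lay 65 to 47 bases before the start, and the matches of Hsp90b1 lay 212 to 194 and 107 to 89 bases before it. In Herpud1 the C/EBP-ATF element lay 112 to 105 and ERSE-II 52 to 42 bases before the start. The C/EBP-ATF element was 23 to 16 bases before the start in Asns and 193 to 186 bases before it in Chac1. A match describes letters only and says nothing of binding in these hearts.

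Among the ER chaperones and co-chaperones, 6 of 11 rose and 1 fell in Cre-negative hearts, where 29.9% and 24.4% of all genes did. In Cre-positive hearts 2 of 11 rose and 0 fell, against 25.7% and 19.5%, and 6 of 11 rose without sham replicate 2, against 25.6%. Hspa5 (chr2:34772090-34776529) encodes BiP, the chaperone that holds the stress sensors inactive until unfolded protein accumulates. It had 476, 482 and 423 CPM in Cre-positive MI and 445, 880 and 526 CPM in Cre-positive sham. In Cre-negative hearts it had 489, 532 and 596 CPM after MI and 515, 516 and 582 CPM after sham. The groups overlapped in both genotypes, and the 880 CPM of Cre-positive sham replicate 2 was the highest value of all 12 libraries. The log2 fold change was 0.00 ± 0.20 (SE, adjusted p = 0.991) in Cre-negative and -0.42 ± 0.20 (adjusted p = 0.105) in Cre-positive hearts. The Cre-positive value depended on single sham libraries, at -0.11 ± 0.12 (adjusted p = 0.448) without replicate 2 and -0.61 (adjusted p = 0.0168, a fall) without replicate 1.

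Sdf2l1 (chr16:17130138-17132383), a partner of ER DnaJ proteins that keeps clients from aggregating, rose most among the chaperones. It had 10.8, 14.3 and 13.1 CPM in Cre-positive MI and 6.03, 6.23 and 5.88 CPM in Cre-positive sham. It had 16.2, 17.3 and 16.5 CPM in Cre-negative MI, against 4.14, 5.09 and 6.6 CPM in Cre-negative sham. MI and sham libraries were apart in both genotypes, with fold changes of 2.11 (log2 1.08 ± 0.16, adjusted p = 0.000222) in Cre-positive and 3.15 (log2 1.66 ± 0.17, adjusted p = 5.76e-06) in Cre-negative hearts. Manf (chr9:106888753-106891938), a secreted ER protein that protects cells under stress, had 52.3, 56.6 and 64.8 CPM in Cre-positive MI and 36.8, 52.7 and 31.9 CPM in Cre-positive sham. In Cre-negative hearts it had 71, 81.8 and 84.6 CPM after MI and 29, 35 and 37.9 CPM after sham. Replicate 2 of the Cre-positive sham group overlapped the MI libraries by a narrow margin, while the Cre-negative groups lay far apart. Manf rose 1.43-fold (log2 0.52 ± 0.17, adjusted p = 0.0269) in Cre-positive and 2.33-fold (log2 1.22 ± 0.17, adjusted p = 8.93e-05) in Cre-negative hearts. The Cre-positive call was lost without Cre-positive MI replicate 2 or 3 or sham replicate 1 or 3, at log2 values of 0.35 to 0.53 and adjusted p = 0.0534 to 0.104.

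The lectin chaperone Calr, which retains glycoproteins until they fold, rose 1.59-fold in Cre-negative hearts (log2 0.67 ± 0.13, adjusted p = 0.00079) and had a log2 difference of 0.19 ± 0.13 in Cre-positive hearts (adjusted p = 0.23). Calr was called higher in Cre-positive hearts under scaling by library size (0.42, adjusted p = 0.013). Its membrane-bound paralog Canx had log2 differences of -0.18 ± 0.12 in Cre-positive and -0.12 ± 0.12 in Cre-negative hearts, neither called. In Cre-negative hearts the BiP cofactors Dnajb11 and Dnajc3 rose by 0.57 ± 0.12 and 0.60 ± 0.23 on the log2 scale (adjusted p = 0.00206 and 0.0458), and Creld2, an ER protein with disulfide isomerase activity, by 0.87 ± 0.20 (adjusted p = 0.0032). In Cre-positive hearts these 3 genes were not called with all libraries under TMM and passed the test without sham replicate 2, at 0.29 ± 0.11, 0.65 ± 0.10 and 0.59 ± 0.18 (adjusted p = 0.0408, 0.000159 and 0.016). With all libraries scaled by size alone, Dnajb11 and Creld2 were called higher there (0.42 and 0.60, adjusted p = 0.013 and 0.0283). Dnajc3 was not (0.45, adjusted p = 0.133). Hsp90b1, the ER paralog of HSP90 known as GRP94, also passed without sham replicate 2 at 0.62 ± 0.17 (adjusted p = 0.00865), and had 0.20 ± 0.26 with all libraries and 0.47 ± 0.27 (adjusted p = 0.15) in Cre-negative hearts. Hsp90b1 was called higher in Cre-negative hearts in 6 of 23 alternatives, at log2 values of 0.45 to 0.73. The exception was Dnajb9, a BiP cofactor that represses IRE1, which fell by 0.54 on the log2 scale in Cre-negative hearts (SE 0.20, adjusted p = 0.0337), and no longer passed under scaling by library size (-0.30, adjusted p = 0.212). It was called in Cre-positive hearts only without sham replicate 1 and by DESeq2 (-0.68 and -0.49, adjusted p = 0.00265 and 0.0442), among the settings tried. In Cre-negative hearts, leaving out any 1 of the MI libraries, or sham replicate 2 or 3, took the call of Dnajb9 to adjusted p = 0.0541 to 0.0847. That of Dnajc3 was lost without any 1 of the 9 libraries other than the Cre-positive sham ones, at log2 values of 0.52 to 0.65 and adjusted p = 0.0588 to 0.13. Hyou1, a nucleotide exchange factor of BiP, had log2 differences of -0.09 ± 0.19 in Cre-positive and 0.43 ± 0.19 in Cre-negative hearts and was called in neither. It was called higher in Cre-negative hearts in 6 of 23 alternatives, among them scaling by library size (0.67, adjusted p = 0.00917) and the fit to the compared groups alone (0.43, adjusted p = 0.0302), and in the authors' deposited table (adjusted p = 0.0341). The authors' tables, made with DESeq2, also called Hsp90b1 higher in Cre-negative hearts (adjusted p = 0.0003). They did not call Manf and Ero1l in Cre-positive hearts (adjusted p = 0.0855 and 0.113) or Derl1 in Cre-negative hearts (0.084), which edgeR called higher.

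The 5 oxidoreductases rose in both genotypes. Protein disulfide isomerases form and shuffle disulfide bonds, and Ero1l, listed by RefSeq as Ero1a, reoxidises them. Pdia4 (chr6:47796141-47813512) had 69.8, 63.8 and 77 CPM in Cre-positive MI and 33.9, 31.2 and 29.8 CPM in Cre-positive sham. It had 88.6, 91 and 95.1 CPM in Cre-negative MI, against 25.5, 35.7 and 33.6 CPM in Cre-negative sham. No library overlapped, and Pdia4 rose 2.22-fold (log2 1.15 ± 0.12, adjusted p = 1.67e-05) in Cre-positive and 2.9-fold (log2 1.53 ± 0.13, adjusted p = 1.29e-06) in Cre-negative hearts. Pdia3 (chr2:121413902-121438687), the isomerase that works with Calr and Canx on glycoproteins, had 314, 293 and 340 CPM in Cre-positive MI and 157, 233 and 158 CPM in Cre-positive sham. It had 418, 386 and 408 CPM in Cre-negative MI, against 154, 185 and 183 CPM in Cre-negative sham. Again replicate 2 was the highest of the Cre-positive sham libraries, below all MI libraries. P4hb (chr11:120560298-120573253), which is both a disulfide isomerase and a subunit of collagen prolyl 4-hydroxylase, had 552, 574 and 548 CPM in Cre-positive MI and 341, 427 and 310 CPM in Cre-positive sham. In Cre-negative hearts it had 705, 596 and 648 CPM after MI and 302, 274 and 313 CPM after sham. Pdia6 (chr12:17266589-17284785), an isomerase that binds BiP, had 144, 168 and 156 CPM in Cre-positive MI against 92.3, 106 and 103 CPM in Cre-positive sham, and 180, 166 and 188 CPM in Cre-negative MI against 70.7, 79.7 and 90.3 CPM in Cre-negative sham. The MI and sham libraries of these genes did not overlap in either genotype. Their log2 rises were 0.79 ± 0.15, 0.63 ± 0.12 and 0.64 ± 0.11 for Pdia3, P4hb and Pdia6 in Cre-positive hearts (adjusted p = 0.000936, 0.00118 and 0.000479) and 1.21 ± 0.15, 1.13 ± 0.12 and 1.15 ± 0.11 in Cre-negative hearts (adjusted p = 2.59e-05, 1.09e-05 and 3.71e-06). Ero1l rose by 0.37 ± 0.11 and 0.38 ± 0.11 in Cre-positive and Cre-negative hearts (adjusted p = 0.0189 and 0.0123), and its call was lost without Cre-positive MI replicate 3 (adjusted p = 0.0677) or sham replicate 1 (0.055) in Cre-positive hearts and without MI replicate 2 (0.0559) in Cre-negative hearts.

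**Figure D2:**
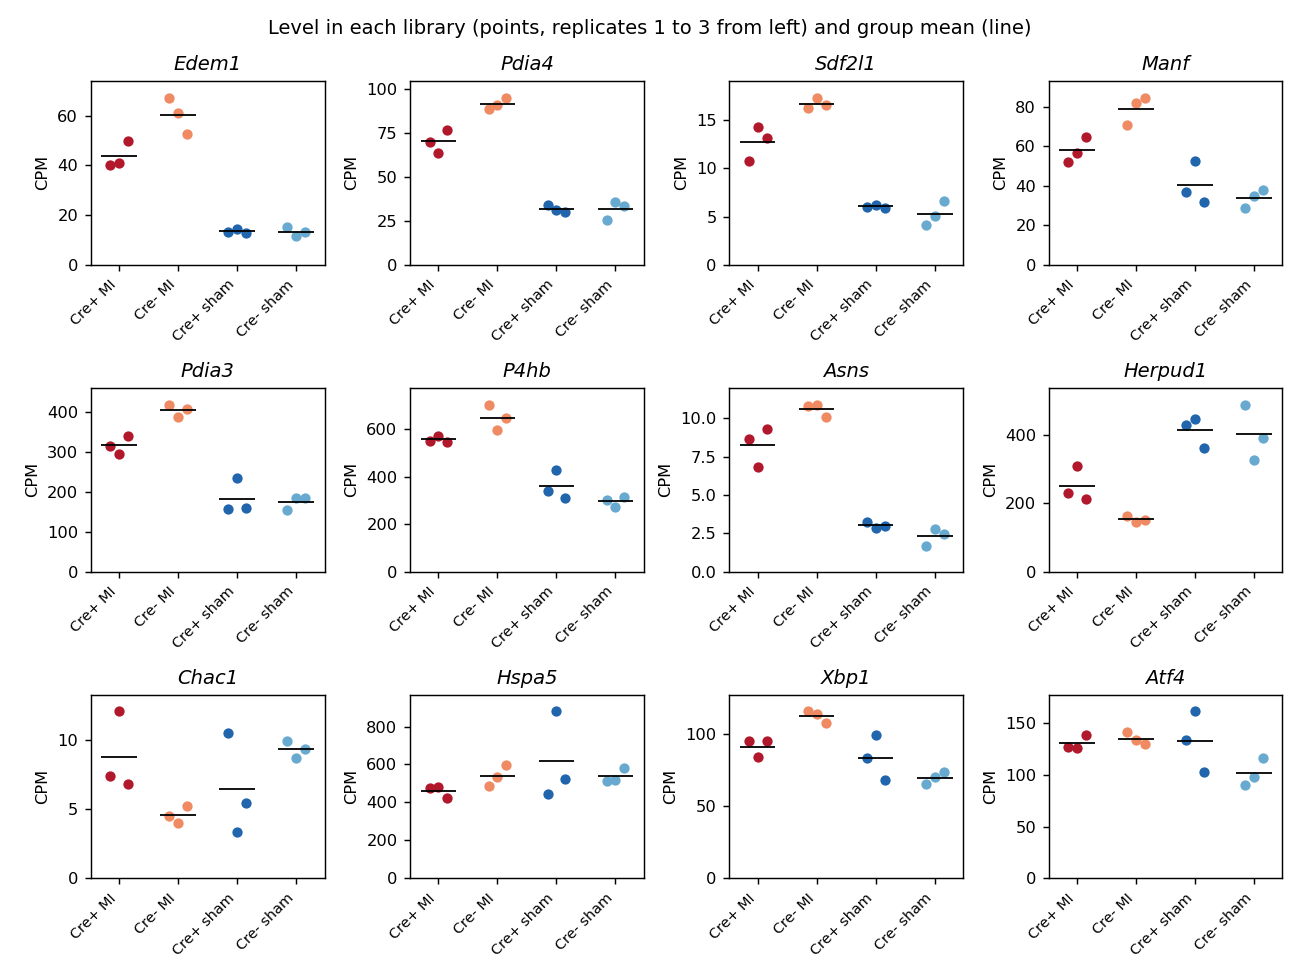
CPM (y axis, from 0, TMM-scaled) of 12 members in each library, as points in replicate order, with the group mean as a line, for Cre-positive MI, Cre-negative MI, Cre-positive sham and Cre-negative sham. The MI libraries of Edem1, Pdia4, Sdf2l1, Pdia3, P4hb and Asns lie above all sham libraries, those of Herpud1 lie below, and Hspa5 overlaps between groups.

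The genes of ER-associated degradation did not move as one. Edem1 (chr6:108824045-108859356), a lectin that hands misfolded glycoproteins to the degradation machinery and is known as an XBP1 target, had 40.3, 40.9 and 49.7 CPM in Cre-positive MI and 13.2, 14.5 and 12.7 CPM in Cre-positive sham. It had 67.2, 61 and 52.8 CPM in Cre-negative MI, against 15.1, 11.6 and 13.1 CPM in Cre-negative sham. Its rise was 3.24-fold (log2 1.70 ± 0.14, adjusted p = 1.66e-06) in Cre-positive and 4.55-fold (log2 2.19 ± 0.14, adjusted p = 2.26e-07) in Cre-negative hearts, with no overlap. Herpud1 (chr8:94386429-94395371), an ER membrane protein that assembles the degradation complex, went the other way. It had 231, 308 and 212 CPM in Cre-positive MI and 429, 447 and 362 CPM in Cre-positive sham. In Cre-negative hearts it had 162, 145 and 150 CPM after MI and 488, 327 and 389 CPM after sham. No MI library reached a sham library. Herpud1 fell by 0.72 on the log2 scale (SE 0.17, adjusted p = 0.00368) in Cre-positive and by 1.40 (SE 0.17, adjusted p = 2.38e-05) in Cre-negative hearts, and it was the only member still called lower in both under scaling by library size (-0.49 and -1.14, adjusted p = 0.0183 and 5.07e-05). Derl1, a channel component, rose by 0.22 ± 0.08 in Cre-negative hearts (adjusted p = 0.0271), and its adjusted p was 0.0546 to 0.138 without any 1 of the 6 Cre-negative libraries and 0.0551 without Cre-positive sham replicate 3. The ubiquitin ligase Syvn1, known as HRD1, had log2 differences of -0.08 ± 0.11 in Cre-positive and 0.27 ± 0.11 in Cre-negative hearts (adjusted p = 0.557 and 0.0529), and its partner Sel1l had -0.10 ± 0.14 and 0.06 ± 0.14 (adjusted p = 0.575 and 0.726). Syvn1 was called higher in Cre-negative hearts in 8 of 23 alternatives, at log2 values of 0.25 to 0.54, and the Cre-positive value of Sel1l was 0.05 ± 0.11 without sham replicate 2. Derl3 had only 2 to 48 reads per library, too few to place its change, and was called in neither genotype.

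Of the sensors, the PERK gene Eif2ak3 rose while the genes of the other sensors fell. Eif2ak3 rose by 0.60 ± 0.16 in Cre-positive hearts (adjusted p = 0.00763) and by 0.53 ± 0.15 in Cre-negative hearts (adjusted p = 0.0119). Ern1 fell by 0.67 in Cre-positive (SE 0.17, adjusted p = 0.00751) and by 0.48 in Cre-negative hearts (SE 0.17, adjusted p = 0.0333). Atf6 (chr1:170704457-170868585) had 133, 148 and 141 CPM in Cre-positive MI and 153, 217 and 200 CPM in Cre-positive sham. It had 121, 142 and 126 CPM in Cre-negative MI, against 199, 143 and 168 CPM in Cre-negative sham. These groups came close without overlapping, and Atf6 fell by 0.43 (SE 0.14, adjusted p = 0.0277) and by 0.39 (SE 0.14, adjusted p = 0.0369) on the log2 scale in Cre-positive and Cre-negative hearts. The falls of Ern1 and Atf6 kept their sign but not the call under scaling by library size, with adjusted p = 0.0553 and 0.23 in Cre-positive and 0.286 and 0.393 in Cre-negative hearts. These sensor calls also depended on single libraries. Atf6 in Cre-positive hearts reached adjusted p = 0.0507 to 0.0876 without MI replicate 1 or 3 or sham replicate 2 or 3, and in Cre-negative hearts 0.0546 to 0.118 without MI replicate 1 or 3 or sham replicate 1 or 3. Ern1 in Cre-negative hearts reached 0.0938 to 0.119 without MI replicate 2 or 3 or sham replicate 1, and Eif2ak3 there 0.0502 to 0.0555 without MI replicate 1 or sham replicate 2 or 3.

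Xbp1 (chr11:5520641-5525993), whose spliced form drives degradation and chaperone genes, had 95.3, 84 and 95.1 CPM in Cre-positive MI and 83.5, 99.4 and 68.3 CPM in Cre-positive sham. In Cre-negative hearts it had 116, 114 and 108 CPM after MI and 65.6, 70.3 and 73.6 CPM after sham. Only the Cre-negative groups were apart, where Xbp1 rose 1.62-fold (log2 0.69 ± 0.12, adjusted p = 0.000461), against a log2 difference of 0.13 ± 0.12 (adjusted p = 0.42) in Cre-positive hearts. Under scaling by library size Xbp1 was called higher in Cre-positive hearts too (0.36, adjusted p = 0.0357), where 36.4% of all genes were. Atf4 (chr15:80255184-80257545) had 127, 126 and 138 CPM in Cre-positive MI and 133, 161 and 103 CPM in Cre-positive sham. It had 141, 133 and 130 CPM in Cre-negative MI, against 89.7, 97.7 and 116 CPM in Cre-negative sham. It rose by 0.41 ± 0.15 in Cre-negative hearts (adjusted p = 0.0294) and had -0.02 ± 0.14 in Cre-positive hearts (adjusted p = 0.921), or 0.11 ± 0.13 without sham replicate 2. The Cre-negative call of Atf4 was lost without any 1 of the 3 MI libraries or sham replicate 1 or 2, at log2 values of 0.31 to 0.44 and adjusted p = 0.05 to 0.137. Ddit3 (chr10:127290793-127296291), which encodes the death-associated factor CHOP, had 14.2, 17.5 and 17.1 CPM in Cre-positive MI and 15.4, 21.7 and 16.5 CPM in Cre-positive sham. It had 12.6, 14.2 and 13.7 CPM in Cre-negative MI, against 15.7, 11.2 and 15.3 CPM in Cre-negative sham, overlapping in both genotypes. Its log2 differences were -0.14 ± 0.16 and -0.06 ± 0.16 (adjusted p = 0.52 and 0.786) in Cre-positive and Cre-negative hearts. Control of ATF4 and of XBP1 lies largely in translation and splicing, which gene counts do not show.

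The outputs of PERK and ATF4 split by gene. Asns (chr6:7675165-7693209), asparagine synthetase, had 8.67, 6.85 and 9.29 CPM in Cre-positive MI and 3.22, 2.84 and 2.99 CPM in Cre-positive sham. It had 10.8, 10.9 and 10.1 CPM in Cre-negative MI, against 1.69, 2.8 and 2.46 CPM in Cre-negative sham. Its rise of 2.73-fold (log2 1.45 ± 0.19, adjusted p = 6.55e-05) in Cre-positive and 4.58-fold (log2 2.19 ± 0.19, adjusted p = 2.28e-06) in Cre-negative hearts equalled that of Edem1 on the log2 scale in Cre-negative hearts. Chac1 (chr2:119351242-119354326), which degrades glutathione and holds the same promoter element, moved otherwise. It had 7.45, 12.1 and 6.84 CPM in Cre-positive MI and 10.5, 3.39 and 5.47 CPM in Cre-positive sham. In Cre-negative hearts it had 4.52, 4 and 5.27 CPM after MI and 9.97, 8.69 and 9.36 CPM after sham. Cre-negative groups were apart and Cre-positive groups overlapped. Chac1 fell by 1.02 on the log2 scale (SE 0.34, adjusted p = 0.0225) in Cre-negative hearts, a call lost under scaling by library size (-0.78, adjusted p = 0.0687), and had 0.43 ± 0.33 (adjusted p = 0.317) in Cre-positive hearts. Without MI replicate 1 or 2 or sham replicate 1 or 3 the Cre-negative value was -0.93 to -1.04 (adjusted p = 0.0522 to 0.0721), and without Cre-positive sham replicate 1 the Cre-positive value was 0.99 (adjusted p = 0.0153, a rise), whereas without sham replicate 2 it was 0.07 ± 0.29 (adjusted p = 0.854). Sesn2, a stress-induced inhibitor of mTORC1, rose by 0.74 ± 0.17 in Cre-negative hearts (adjusted p = 0.00329) and had 0.40 ± 0.17 (adjusted p = 0.0775) in Cre-positive hearts, or 0.49 ± 0.19 (adjusted p = 0.0472) without sham replicate 2. Its Cre-positive value was also called with all libraries scaled by size alone (0.63, adjusted p = 0.0117). Ppp1r15a, which encodes the phosphatase subunit GADD34 that restores translation, had log2 differences of -0.58 ± 0.39 and 0.03 ± 0.39 in Cre-positive and Cre-negative hearts, and the pseudokinase gene Trib3 had 0.07 ± 0.29 and 0.20 ± 0.29. Neither was called, and Ppp1r15a reached 96.2 CPM in Cre-positive sham replicate 2, with 23.8 to 42.1 CPM in the other 11 libraries. Without that library its Cre-positive value was 0.16 ± 0.23, the sign turned.

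The ATF6/XBP1 branch, the 21 chaperone, isomerase and degradation genes other than Ero1l, was set beside the PERK/ATF4 branch of 8 genes (Atf4, Ddit3, the 5 outputs and Ero1l). In Cre-negative hearts 12 of 21 rose and 2 fell in the first, with a median log2 fold change of 0.60, and 4 of 8 rose and 1 fell in the second, with a median of 0.29, where 29.9% of all genes rose and 24.4% fell. In Cre-positive hearts the counts were 7 of 21 up and 1 down with a median of 0.20, and 2 of 8 up and 0 down with a median of 0.22, beside 25.7% up and 19.5% down among all genes. Scaled by library size, 11 of 21 rose there with a median of 0.43 and 3 of 8 with a median of 0.45, where 36.4% of all genes rose with a median of 0.24. Without Cre-positive sham replicate 2, 11 of 21 rose and 1 fell with a median of 0.59, and 3 of 8 rose with a median of 0.25, against 25.6% of all genes. These counts describe lists of unequal size and were not tested against each other. The mean log2 CPM over the 21 genes was 6.48 ± 0.05 in Cre-positive MI, with 6.57 ± 0.04 in Cre-negative MI, against 6.13 ± 0.30 in Cre-positive sham and 5.94 ± 0.08 in Cre-negative sham (SD, n = 3 each). For the 8 PERK/ATF4 genes it was 4.02 ± 0.04 in Cre-positive MI, 3.94 ± 0.09 in Cre-negative MI, 3.72 ± 0.23 in Cre-positive sham and 3.58 ± 0.11 in Cre-negative sham. Replicate 2 of the Cre-positive sham group lay at 6.48 for the first branch, with 5.98 and 5.94 in replicates 1 and 3, and at 3.95 for the second, with 3.71 and 3.50. Of the 9 genes with an ERSE match, Calr, Creld2, Dnajc3 and Pdia6 rose in Cre-negative hearts and Hspa5, Hsp90b1, Canx, Syvn1 and Derl3 were not called. Edem1, Pdia4 and Sdf2l1, with the largest rises called in this branch, had no exact ERSE match in the windows. The window of Edem1 lay inside the listed gene, so the bases before the first base of that gene were not searched.

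**Figure D3:**
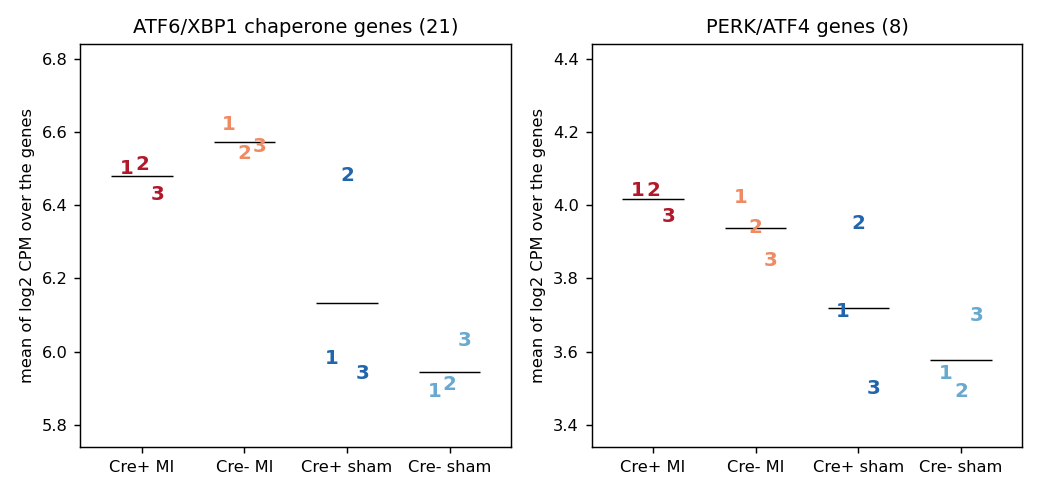
Mean log2 CPM over the 21 ATF6/XBP1 chaperone genes (left) and the 8 PERK/ATF4 genes (right) in each library (digits are replicate numbers, lines are group means, y axes do not start at 0). Replicate 2 of the Cre-positive sham group lies at 6.48 and 3.95, at the level of the MI libraries, and the other sham libraries lie below all MI libraries.

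**Figure D4:**
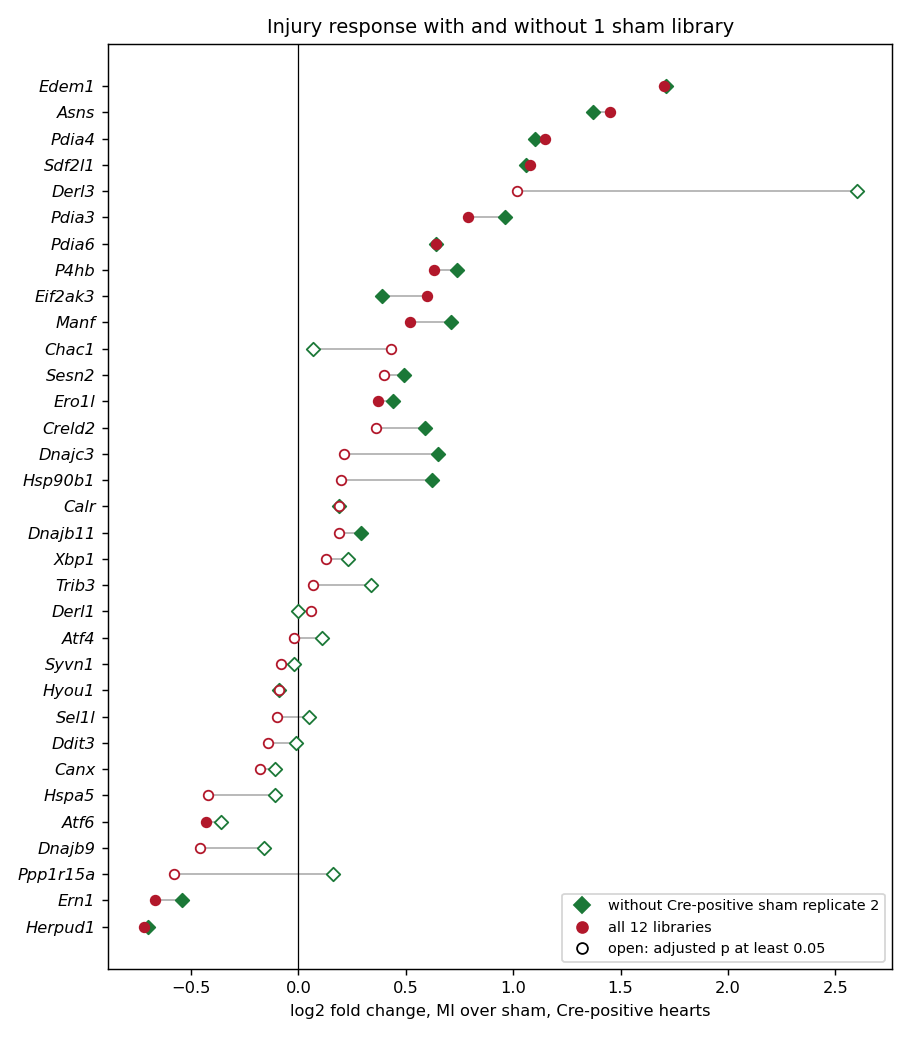
Log2 fold change, MI over sham, of each member in Cre-positive hearts without sham replicate 2 (green diamonds) and with all 12 libraries (red circles), open where adjusted p is at least 0.05. Hsp90b1, Dnajc3, Creld2, Dnajb11 and Sesn2 turn from open to filled without that library, and Atf6 from filled to open.

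Levels between genes were compared on the deposited FPKM, which are scaled by transcript length. Calr was the most abundant member in each group, with 355 ± 32.2 FPKM in Cre-positive MI, 421 ± 20.7 FPKM in Cre-negative MI, 265 ± 21.9 FPKM in Cre-positive sham and 224 ± 32.5 FPKM in Cre-negative sham (SD, n = 3 each). Hspa5 stood at 191, 234, 218 and 197 FPKM in the same groups, and P4hb at 232, 283, 127 and 109 FPKM. P4hb and Hspa5 thus changed rank between MI and sham in both genotypes. At the low end, Asns, Sesn2 and Trib3 had group means of 1.14 to 6.13 FPKM and Derl3 of 0.22 to 1.41 FPKM. The genes that rose most were of modest level, with Edem1 at 7.8 ± 0.978 FPKM in Cre-positive MI, with 11.3 ± 1.61 FPKM in Cre-negative MI, against 2.05 ± 0.121 and 2.09 ± 0.198 FPKM in Cre-positive and Cre-negative sham.

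**Figure D5:**
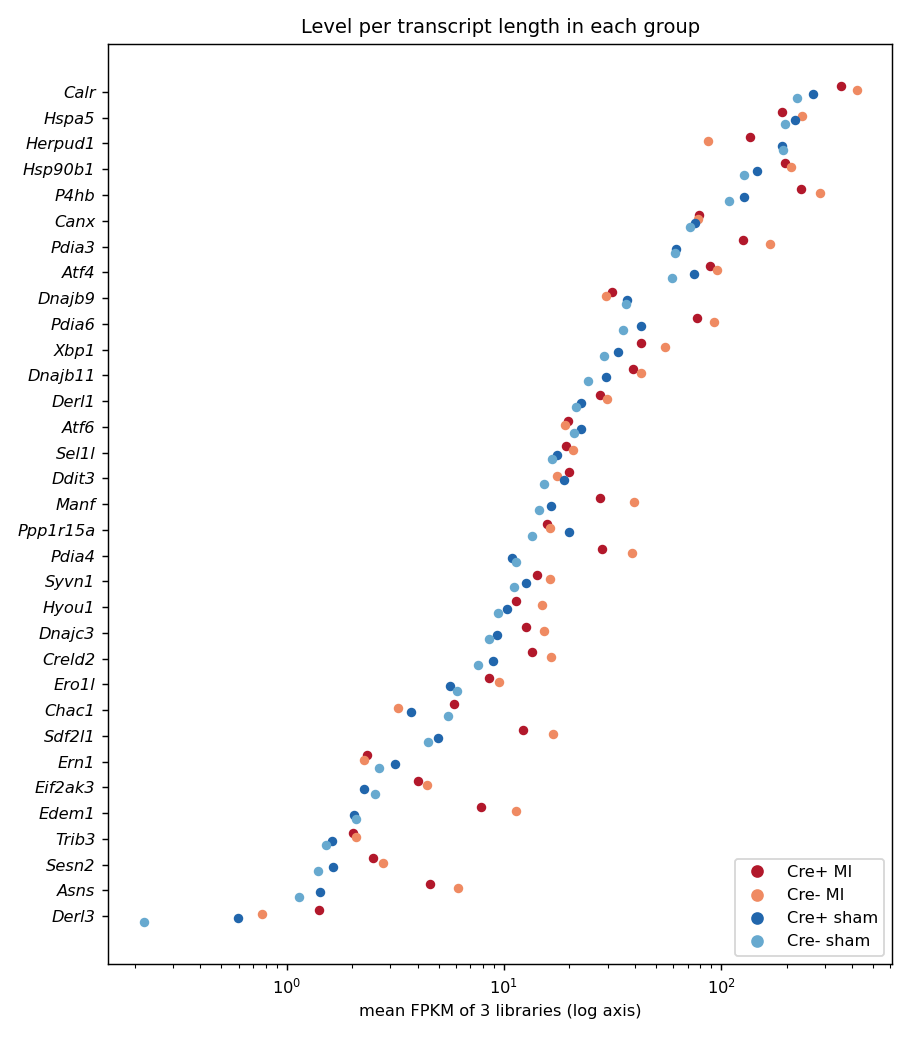
Mean FPKM of 3 libraries (log axis) of each member in Cre-positive MI (dark red), Cre-negative MI (orange), Cre-positive sham (dark blue) and Cre-negative sham (light blue). Calr leads with 224 to 421 FPKM, Derl3 is lowest, and the MI points of Edem1, Asns and Sdf2l1 lie well to the right of the sham points.

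Cre-positive hearts, which carry the allele meant to remove Yap from myofibroblasts, were set beside Cre-negative hearts. The groups differ in the Postn allele and level as well, and their whole-ventricle Yap1 overlapped, so loss of Yap and the Cre allele cannot be told apart here. Y-linked reads also differed, reaching 10 CPM in 1 of 3 Cre-positive and 3 of 3 Cre-negative MI libraries. After sham they did so in 0 of 3 Cre-positive and 2 of 3 Cre-negative libraries. This difference cannot be cleanly told apart from genotype either. After MI, 0 of 33 members passed the edgeR test, where 0% of all genes did, and the median log2 difference of the members was -0.07. At an unadjusted p under 0.05, 8 members differed (24.2%), 2 of them higher and 6 lower, against 12.6% of all genes, 5.69% higher and 6.95% lower. Herpud1 had 231, 308 and 212 CPM in Cre-positive MI against 162, 145 and 150 CPM in Cre-negative MI, a log2 difference of 0.72 ± 0.17 (adjusted p = 0.224 by edgeR). Chac1 had 0.93 ± 0.33 (adjusted p = 0.298). Edem1 had -0.47 ± 0.13 (adjusted p = 0.244), Pdia4 -0.38 ± 0.12 (adjusted p = 0.277), Manf -0.45 ± 0.17 (adjusted p = 0.313), Sdf2l1 -0.38 ± 0.15 (adjusted p = 0.336), Xbp1 -0.30 ± 0.12 (adjusted p = 0.339) and Pdia3 -0.36 ± 0.15 (adjusted p = 0.35). In each of these 8 genes the 3 Cre-positive MI libraries did not overlap the 3 Cre-negative MI libraries. In all, Cre-positive libraries lay wholly above for 3 of 33 members and wholly below for 10, against 12% and 15.2% of all genes. This contrast shares its libraries with the injury contrasts and is not independent of them. In the authors' deposited table of this comparison, made with DESeq2, 2 members were higher and 4 lower at an adjusted p under 0.05, which were Herpud1 (log2 0.73) and Chac1 (0.95), and Edem1 (-0.45), Manf (-0.43), Pdia4 (-0.37) and Pdia3 (-0.34). Of the 17182 genes in that table, 2.21% were higher and 2.23% lower. DESeq2 fitted here to all 12 libraries called 1 member, Herpud1 (log2 0.72, adjusted p = 0.0117). The share of all genes called by that fit is not given here, so this count cannot be set against a background.

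After sham, 0 of 33 members passed, where 0.0512% of all genes did, and the median log2 difference of the members was 0.20, with 30 of 33 values above 0. Of all genes, 6786 of 13678 lay above 0, with a median of 0. Without Cre-positive sham replicate 2 the median of the members was 0.06, with 21 of 33 above 0, against 0.02 and 7323 of 13837 for all genes. At an unadjusted p under 0.05, 5 members were higher in Cre-positive sham and 0 lower, against 3.71% and 4.52% of all genes (8.22% in either direction). These were Pdia6 (log2 0.33 ± 0.11, adjusted p = 0.582), Dnajb11 (0.33 ± 0.12), Atf4 (0.39 ± 0.15), Calr (0.29 ± 0.13) and P4hb (0.28 ± 0.12). Without Cre-positive sham replicate 2, the 3 members differing at that level (9.09%) were Pdia6, higher, and Dnajb9 and Dnajc3, lower, a share near that of all genes (9.55%, of which 4.26% higher and 5.29% lower), and 0 of 33 passed after adjustment, where 0.0361% of all genes did, all of them lower. No member, 0 of 33, passed in the authors' deposited table, where 0.0727% of genes did, all lower.

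The injury response itself was compared between genotypes by an interaction contrast. None of the 33 members passed the edgeR test, where 0% of all genes did, and the median difference of the log2 responses was -0.39, or -0.20 without Cre-positive sham replicate 2. The number of members above 0 was 4 of 33 with all libraries and 13 of 33 without that library. For all genes these numbers were 6918 of 13678 and 7058 of 13837, with a median of 0.01 in both. At an unadjusted p under 0.05, 12 members differed, 2 with a higher and 10 with a lower response in Cre-positive hearts, against 4.26% and 3.9% of all genes (8.16% in either direction). The largest in size were Chac1 (1.45 ± 0.47, adjusted p = 0.553), Asns (-0.74 ± 0.27, adjusted p = 0.595), Manf (-0.70 ± 0.24, adjusted p = 0.588) and Herpud1 (0.68 ± 0.23, adjusted p = 0.588). Pdia6 (-0.51 ± 0.15) and Xbp1 (-0.57 ± 0.17) had the smallest adjusted p, 0.552 each. Without Cre-positive sham replicate 2 12 members differed at that level, 3 higher and 9 lower, while the share of all genes was 12.6% (6.91% higher and 5.72% lower). Dnajb9 entered and Syvn1 left, and 0 passed after adjustment. Of the values named above, Manf was then -0.48, Chac1 1.12, Asns -0.80 and Herpud1 0.72.

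Genes of the pathway outside the set were counted against the same background, 29.9% higher and 24.4% lower in Cre-negative hearts and 25.7% and 19.5% in Cre-positive hearts (25.6% and 22.1% without sham replicate 2). Of 23 further ER folding factors, 17 rose and 0 fell in Cre-negative hearts (median log2 0.53), and 13 rose and 0 fell in Cre-positive hearts (median 0.44, and 0.45 with the same counts without sham replicate 2). Ppib, a prolyl isomerase of collagen folding, rose by 1.11 ± 0.09 in Cre-positive and 1.40 ± 0.09 in Cre-negative hearts (adjusted p = 2.36e-06 and 3.57e-07). Pdia5 rose by 2.05 ± 0.17 and 2.02 ± 0.17 in Cre-positive and Cre-negative hearts, and Txndc5, an isomerase known from fibroblasts, by 1.38 ± 0.12 and 1.71 ± 0.12. Of 11 further degradation genes found of 14 listed, 4 rose and 2 fell in Cre-negative hearts and 2 rose and 2 fell in Cre-positive hearts (3 and 2 without sham replicate 2), shares near the background in Cre-positive hearts. Edem2, a paralog of Edem1, rose by 1.09 ± 0.17 in Cre-positive and 1.16 ± 0.17 in Cre-negative hearts, and the segregase gene Vcp fell by 0.28 and 0.24 (SE 0.09 each, adjusted p = 0.0246 and 0.0448). Under scaling by library size 0 of these 11 fell, against 13.4% of all genes in Cre-negative and 8.39% in Cre-positive hearts. Of 15 further sensors and stress factors, 9 rose and 1 fell in Cre-negative and 5 rose and 1 fell in Cre-positive hearts, also without sham replicate 2. Creb3l1, an ATF6-related membrane-bound factor known to drive collagen genes, had 47.6, 46.2 and 54.1 CPM in Cre-positive MI and 12.2, 8.98 and 9.08 CPM in Cre-positive sham. It had 81.3, 67.5 and 69.8 CPM in Cre-negative MI, against 12.2, 10.4 and 11.7 CPM in Cre-negative sham. It did not overlap between surgeries and rose by 2.28 ± 0.14 and 2.67 ± 0.14 on the log2 scale in Cre-positive and Cre-negative hearts (adjusted p = 2.91e-07 and 9.77e-08). Map3k5, the kinase ASK1 downstream of IRE1, fell by 0.91 and 1.02 (SE 0.10 each).

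Of 22 tested ATF4 targets outside the set, 12 rose and 5 fell in Cre-negative hearts (median log2 0.84), and 10 rose and 4 fell in Cre-positive hearts (median 0.49, or 12 and 6 with a median of 0.55 without sham replicate 2), so that higher calls exceeded the background share and lower calls lay near it. The serine, glycine and proline genes Phgdh, Mthfd2 and Pycr1 rose by 2.01 ± 0.27, 2.26 ± 0.25 and 1.95 ± 0.21 in Cre-positive hearts and by 2.72 ± 0.28, 2.53 ± 0.24 and 2.26 ± 0.21 in Cre-negative hearts. Nupr1, a stress-induced chromatin protein, rose by 1.94 ± 0.13 in Cre-positive and 1.73 ± 0.13 in Cre-negative hearts. Vldlr, a lipoprotein receptor, fell by 1.07 (SE 0.23) and Stc2, a secreted glycoprotein, by 0.63 (SE 0.20) in Cre-positive hearts, and by 1.41 (SE 0.23) and 1.04 (SE 0.20) in Cre-negative hearts. Under scaling by library size 2 of the 22 fell in each genotype, where 13.4% of all genes fell in Cre-negative and 8.39% in Cre-positive hearts. Chaperones outside the ER differed by compartment. Of 10 cytosolic heat shock chaperones, 4 rose and 1 fell in Cre-negative and 4 rose and 2 fell in Cre-positive hearts (4 and 3 without sham replicate 2), led by Hspa1b at 1.44 ± 0.27 in Cre-positive and 2.42 ± 0.28 in Cre-negative hearts. Of 8 mitochondrial chaperones and proteases, 0 rose and 8 fell in Cre-negative hearts (median log2 -0.77), and 0 rose and 6 fell in Cre-positive hearts (median -0.59, or 7 with a median of -0.64 without sham replicate 2). Under scaling by library size 6 fell in Cre-negative and 4 in Cre-positive hearts, against the same 13.4% and 8.39% of all genes. Hspa9, the mitochondrial HSP70, fell by 0.65 (SE 0.11, adjusted p = 0.000407) in Cre-positive and by 0.89 (SE 0.11, adjusted p = 2.51e-05) in Cre-negative hearts. The cardiomyocyte marker sums of the MI libraries lay below all sham sums in Cre-negative hearts and overlapped them in Cre-positive hearts, and their part in this was not tested. The genes named from these lists for Cre-positive hearts kept their sign and call without sham replicate 2.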

How the data were processed

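Libraries of mouse left ventricle were prepared from TRIzol-extracted RNA, per the labels' protocols. Reads were processed with Bowtie2 2.2.5 and RSEM 1.2.12 on mm10, per the submitters' processing notes. Per the file headers, the authors deposited for every library the expected counts and FPKM of RSEM, and 74.0% of counts above 0 were whole (tolerance 0.005). Expected counts were rounded before testing. The deposited weighted transcript length, another value of RSEM, was read for Xbp1. The authors' 4 deposited comparison tables give log2 fold changes and adjusted p-values from DESeq2, going by their names, with settings not given in the sources used here.

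Counts were fitted in R 4.3.3 with edgeR 4.0.16 (filterByExpr with minimum count 10, which removed 3793 genes, TMM, quasi-likelihood test, 1 coefficient per group over all 12 libraries, 8 residual degrees of freedom). P-values are two-sided and adjusted over 13678 genes within each contrast. SE was derived from the test, as the size of the log2 fold change over the square root of the quasi-likelihood F statistic. Depth was 10257675 to 15176286 counts per library. Alternatives used limma 3.58.1 on log2(FPKM + 0.1) and log2(FPKM + 1), DESeq2 1.42.0, other scalings and filters, a replicate block, a term for Y-linked reads and leaving out each library. The fit was tested on simulated data. Values in every library are given for Hspa5, Xbp1, Atf4, Atf6, Ddit3 and for members called with a log2 change of at least 1 in size. Of each further list up to 4 called genes per direction with the smallest p could be named. Members and lists were chosen with earlier results of these data known. Ero1l was matched to RefSeq as Ero1a, and protein sequences were not used here.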

Additional observations from a re-analysis of the deposited data

Results flagged for a closer look

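Xbp1 mRNA gave a signal outside the gene counts. RSEM reports a transcript length per gene that is weighted by the share of each listed transcript, and 2 transcripts were listed for Xbp1. This weighted length was 2264.00, 2261.70 and 2258.38 bases in Cre-positive MI and 2259.58, 2264.00 and 2257.79 bases in Cre-negative MI. It was 2264.00 bases in all 6 sham libraries, so it lay below the sham value in 4 of 6 MI and 0 of 6 sham libraries. The Xbp1 counts behind it were 1189 to 2003 reads in MI and 662 to 1085 reads in sham libraries. The lengths are estimates without a stated error, no test was run on them, and the cause of the difference was not tested.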

How the results depend on the processing

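Of the 23 members called in Cre-negative hearts, 14 kept the call in all 23 alternatives (529 refits, 473 with the call kept, 56 with it lost, 0 with the sign turned), and of the 13 called in Cre-positive hearts, 9 did (299 refits, 280 kept and 19 lost). The lower calls were the least stable. In Cre-negative hearts 1 member was lower under scaling by library size, and 1 under limma on log2(FPKM + 0.1) and on log2(FPKM + 1), against 5 under TMM. In Cre-positive hearts these 3 alternatives gave 16 higher and 1 lower, against 10 and 3. All genes shifted as well under scaling by library size. In Cre-positive hearts 36.4% were higher and 8.39% lower, against 25.7% and 19.5% under TMM. In Cre-negative hearts 41.2% were higher and 13.4% lower, against 29.9% and 24.4%. The cause of these differences was not tested. For limma, the Y-linked term, the replicate block and most libraries left out, shares of all genes are not given here. Leaving out 1 library gave 14 to 20 higher and 2 to 5 lower members in Cre-negative hearts and 8 to 15 higher and 2 to 5 lower in Cre-positive hearts. The count of 2 lower in Cre-negative hearts came without any 1 of the Cre-negative MI libraries or sham replicate 1 or 3, that of 15 without Cre-positive sham replicate 2, and that of 5 lower in Cre-positive hearts without sham replicate 1. DESeq2 called 1 member, Herpud1, higher in Cre-positive MI, against 0 by edgeR, which called 0% of all genes. The share of all genes for DESeq2 is not given here. Among members called in any setting, signs turned for 3 members in Cre-positive hearts that were not called with all libraries under TMM, namely Hsp90b1 without sham replicate 1 (range over libraries left out -0.08 to 0.62), Derl1 without sham replicate 2 (0.00) and 3 (range -0.01 to 0.11), and Xbp1 without sham replicate 3 (range -0.02 to 0.23). A term for Y-linked reads gave 16 higher and 4 lower in Cre-negative and 10 and 3 in Cre-positive hearts. Correlations of same-numbered libraries between compared groups were -0.10 to 0.28, and those of differently numbered ones -0.31 to 0.17. The highest were between genotypes after MI, at 0.28 for replicate 1 and 0.24 for replicate 3. The labels do not say what the numbers mean, and 3 libraries per group cannot decide whether they pair samples. With the replicate block 18 members were higher and 5 lower in Cre-negative hearts, 10 and 3 in Cre-positive hearts and 0 between genotypes. Derl3, at 2 to 48 reads per library, was too shallow to place.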
